A study of Rattus norvegicus with 15 samples.

Results

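The effect of 3 hours of light on the retina was taken from 6 of the 15 arrays of the series, 3 named 3 ZT light and 3 named 0 ZT dark, and was described across all 31042 probe sets that are not array controls. Both groups were retinas of Long Evans rats, adult males, kept in darkness through the night. Retinas of 0 ZT dark were taken in darkness at 7 am, and those of 3 ZT light at 10 am after 3 hours under 1000 lux. The groups therefore differ in light and in clock hour together. Where this mattered the 3 arrays of 3 ZT dark, from rats still in darkness at 10 am, were set beside them. Each group has replicas 1 to 3, and each 3 ZT light array was compared with the 0 ZT dark array of its own number. How many animals gave RNA to an array is not stated, so the spread between replicas may be partly technical. A probe set is a group of short oligonucleotides that reads 1 transcript or part of it, and its deposited level is a log2 value, so that a difference of 1 is a doubling. Of the probe sets on the array 20832 carry a single gene symbol. Whole retina is a mixture of cells, in which a lower level can come from fewer cells of a type or from less RNA per cell, and these cannot be told apart here.

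Rods and cones are depolarised in darkness, when an inward current through channels held open by cyclic GMP flows into their outer segments and the retina draws most oxygen. Light closes these channels and lowers glutamate release. ON bipolar cells read that fall through the receptor mGluR6, amacrine and horizontal cells shape it, and ganglion cells carry the result to the brain, while dopamine from amacrine cells signals daylight and clock genes follow the hour.

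The 6 arrays were closely alike, with correlations from 0.961 to 0.995. Their median level followed the replica number, from 8.28 to 8.32 in replica 1, 8.58 to 8.62 in replica 2 and 8.79 in replica 3, so that comparisons were made within a number. In 2 of them the control probe sets of *Actb* showed a larger difference between the 3′ and 5′ ends, a difference that is read as a measure of RNA integrity. The array of 0 ZT dark replica 1 had 2.10 and that of 3 ZT light replica 2 had 2.40, where the remaining 4 ran from 0.785 to 1.30, and limma gave 3 ZT light replica 2 the lowest weight of the 15 arrays, 0.160. Values without one or both of these arrays are given beside the results that they move most. Rod markers stood at the top of the range in every array, with *Gnat1* and *Sag* between 15.14 and 15.48 and the ON bipolar gene *Pcp2* between 13.32 and 14.77. Lens genes were uneven between the samples. The median log2 ratio of 14 lens crystallins was 1.89, -2.05 and -0.15 in replicas 1 to 3, on opposite sides in replicas 1 and 2.

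Few probe sets passed a limit on the ratio in all pairs. Above 1.6 times the control there were 709, 1659 and 269 probe sets in replicas 1, 2 and 3, and 18 in all of them (0.058% of those measured). Below 0.7 times there were 1784, 3607 and 654, and 23 in all (0.0741%). Replica 2 held the widest spread of log2 ratios, with an SD of 0.477 against 0.322 and 0.236 in replicas 1 and 3. It also held the most extreme ratio of 11 of the 18 and of 15 of the 23. Darkness to the same hour gave 0 probe sets above 1.6 times in every replica and 5 below 0.7 (0.0161%), with the same 0 ZT dark arrays as the control.

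**Figure D1:**
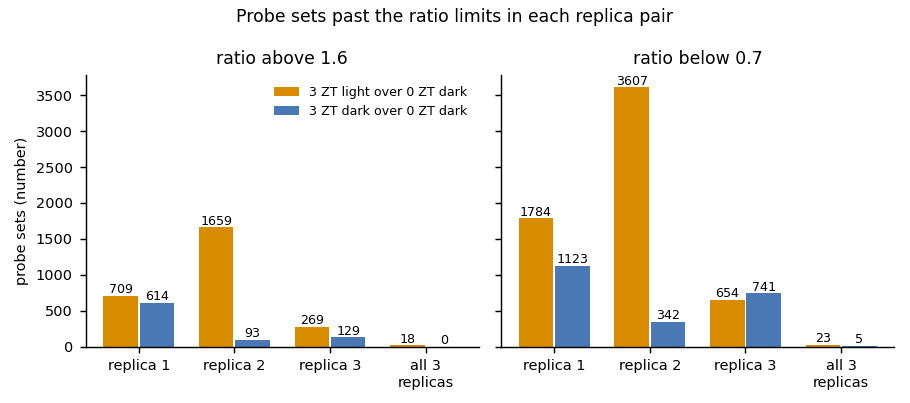
Number of probe sets (vertical axis) above 1.6 times (left) or below 0.7 times (right) the 0 ZT dark array of the same replica, for 3 ZT light (orange) and 3 ZT dark (blue). Single light pairs pass 269 to 3607 probe sets, most in replica 2, while 18 and 23 pass in all 3 replicas after light and 0 and 5 after darkness.

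In the limma fit to all probe sets, 0 were higher (0.0%) and 1 was lower (0.00322%) at an adjusted p under 0.05. At an unadjusted p under 0.05, 1008 were higher (3.25%) and 1376 lower (4.43%), and without 3 ZT light replica 2 these were 900 and 977. All 3 light arrays stood above all 3 controls in 399 probe sets (1.29%) and below them in 376 (1.21%), counts that set arrays of all replica numbers against each other. Of the 14217 genes, each taken with its brightest probe set, 2.12% were higher and 6.87% lower at an unadjusted p under 0.05, with a median log2 fold change of -0.03. These shares are the background for the gene groups below, and without 3 ZT light replica 2 they were 1.58% and 4.25%. By sign alone 56.9% of the 14217 genes stood lower, and 58.3% without 3 ZT light replica 2. That is the background for counts of genes that stood lower. Apart from the single call, the lowest adjusted p of any gene by its brightest probe set was 0.248, so that the differences described below for other genes did not pass the test across all probe sets.

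The one transcript that fell past the threshold was *LOC102553043*, a long noncoding RNA of chromosome 1 (GRCr8, chr1:205754978-205763340, 8363 bases) whose span holds the hairpin of the microRNA *Mir210* (chr1:205755923-205756032). *Mir210* is known from other tissues as a microRNA that rises when oxygen is short. The microRNA lies on the same strand as the long RNA, but the platform annotation names only *LOC102553043* for the probe set, and whether its probes read the precursor of *Mir210* was not tested. The start of the long RNA overlaps that of the protein-coding *Phrf1* by 77 bases, and *Drd4*, the gene of the dopamine D4 receptor, lies 62597 bases away. The mature microRNA is shown first, with the seed that pairs with its targets (bases 2 to 8) in capitals, and then the promoters of the long RNA and of *Drd4*, whose levels are compared below. In the promoters, the 250 bases before the start are in lower case and the 50 bases from the start on in capitals. All are from RefSeq on GRCr8, written 5′ to 3′.
rno-miR-210-3p, chr1:205755946-205755967, minus strand: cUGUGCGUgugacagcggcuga
LOC102553043, chr1:205763291-205763590, minus strand: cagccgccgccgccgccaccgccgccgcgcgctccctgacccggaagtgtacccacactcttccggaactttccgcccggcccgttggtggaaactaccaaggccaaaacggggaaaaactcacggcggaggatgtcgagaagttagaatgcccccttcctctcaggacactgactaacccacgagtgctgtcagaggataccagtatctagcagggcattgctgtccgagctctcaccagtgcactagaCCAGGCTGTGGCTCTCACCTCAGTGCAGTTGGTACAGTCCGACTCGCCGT
Drd4, chr1:205825687-205825986, plus strand: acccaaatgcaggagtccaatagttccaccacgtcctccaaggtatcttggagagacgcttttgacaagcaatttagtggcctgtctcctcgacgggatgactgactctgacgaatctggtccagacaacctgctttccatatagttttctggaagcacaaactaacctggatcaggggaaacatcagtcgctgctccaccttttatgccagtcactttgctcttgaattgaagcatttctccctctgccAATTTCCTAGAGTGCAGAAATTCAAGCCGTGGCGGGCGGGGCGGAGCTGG

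*LOC102553043* stood at 9.06, 9.36 and 9.34 in 0 ZT dark replicas 1 to 3 and at 8.18, 7.98 and 7.78 in 3 ZT light. The groups were far apart, and all pairs showed the drop, with ratios of 0.543, 0.384 and 0.340. Its log2 fold change was -1.27 ± 0.119 (SE, adjusted p = 0.0172). In darkness to the same hour it stood at 9.25, 9.16 and 9.16, all within the range of the control, with a log2 fold change of -0.06. Light against darkness at 10 am gave -1.21 (adjusted p = 0.0277), again the single call of that comparison (0.00322% of probe sets). That call was lost without the replica block, with quantile normalisation and whenever 1 of its arrays was left out. At the later hour the levels were 8.33, 8.45 and 8.19 in 6 ZT light and 8.80, 8.54 and 8.48 in 6 ZT dark, all above the 3 ZT light arrays. The adjusted p passed the threshold without 0 ZT dark replica 1 (0.00279) and without both arrays of high *Actb* difference (0.0244). It missed it without 0 ZT dark replica 2 (0.235) or 3 (0.150), without 3 ZT light replica 2 (0.0501) or 3 (0.183), and with only the 6 arrays in the fit (0.873), where the fold change was the same.

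Of the 24 other genes within 150000 bases of *LOC102553043*, 16 had a probe set. *Drd4*, which in the retina acts in photoreceptors, stood at 14.60, 14.67 and 14.29 in the controls and 14.27, 14.16 and 13.46 after light. Each light array was below each control, and the log2 fold change was -0.56 ± 0.118 (unadjusted p = 0.000697). Its neighbours *Deaf1*, *Tmem80*, *Eps8l2* and *Sct* stood at -0.47, -0.28, -0.25 and -0.31 (log2 fold change), each with an unadjusted p under 0.05. Of all genes 6.87% were lower at that level. *Phrf1*, which shares the start region with the long RNA, was at -0.08 (unadjusted p = 0.562). The remaining measured genes also had an unadjusted p over 0.05. Of these *Ano9*, *Lrrc56* and *Cdhr5* stood higher, at 0.13, 0.07 and 0.06, and the rest lower. In darkness to 10 am *Drd4* was at -0.12.

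Since a microRNA of low oxygen lies in that transcript, 36 other genes known to be induced by low oxygen were read, a list written after these values were seen. After light 28 of them stood lower and 8 higher, where 56.9% of all genes stood lower, and their median was -0.16. At an unadjusted p under 0.05, 0 were higher and 6 lower, against 2.12% and 6.87% of all genes. The 6 were *Ankrd37* (ratios 0.735, 0.401 and 0.679), the angiogenic factor *Vegfa* (0.786, 0.645 and 0.838), *Tfrc*, *Plin2*, *Kdm3a* and *Mxi1*. With 3 ZT light replica 2 left out, the median was -0.05, 24 of 36 stood lower, and 1 of the 6, *Ankrd37*, kept an unadjusted p under 0.05. Without 0 ZT dark replica 1 the median was -0.14, and without both arrays -0.06. In darkness to 10 am it was -0.01.

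The 23 probe sets on the lower side of the ratio rule belonged to 22 genes and 1 transcript with no symbol. The 23 were picked by the ratios of these same arrays, which favours low p-values and groups without overlap. Their counts are therefore no separate test. In 16 of the 23 the light arrays lay wholly below the controls, against 1.21% of all probe sets. An unadjusted p under 0.05 was found for 22, against 4.43% of all, and 19 of these kept it without 3 ZT light replica 2. All 23 stood on the same side of the control in darkness to 10 am. That control was the same 0 ZT dark arrays by which the 23 were picked, which favours a shared side. *Pcp2*, a regulator of G protein signalling in ON bipolar cells, was the brightest of them. It stood at 14.28, 14.77 and 14.42 in the controls and at 13.52, 13.32 and 13.75 after light, with no overlap and a mean ratio of 0.529 ± 0.141 (SD, n = 3). In the fit lacking 3 ZT light replica 2, its log2 fold change went from -0.96 to -0.75. The membrane lectin *Chodl* stood at 9.87, 10.41 and 9.77 before light and at 8.50, 9.18 and 8.82 after. Those groups did not overlap either, but *Chodl* in 3 ZT dark spread from 8.92 to 10.09 and replica 1 of it was already near the light arrays. *Lrguk*, a protein with leucine-rich repeats and a guanylate kinase domain, stood at 9.09, 9.10 and 9.04 before light and at 8.38, 8.51 and 8.22 after.

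Among receptors and secreted proteins, the alpha 1b adrenergic receptor *Adra1b* stood at 11.18, 11.16 and 10.68 before light and at 10.23, 10.41 and 10.16 after. Its ratios were 0.518, 0.596 and 0.6998, the last of them the nearest to the limit of 0.7 from inside, while *Ccl27* at 0.703 was the nearest outside it. On the higher side *Smurf2* at 1.61 was just inside the limit and *Stat3* at 1.59 just outside. Ratios of *Pla2g1b*, a secreted phospholipase, were 0.675, 0.514 and 0.629, and those of *Agt*, the precursor of angiotensin, 0.670, 0.534 and 0.679. *Nrn1l*, a neuritin relative, was at 0.661, 0.332 and 0.627. *Crhbp*, which binds corticotropin-releasing hormone, was at 0.648, 0.292 and 0.623, and it was low too in darkness to 10 am in replicas 1 and 2 (0.474 and 0.487). The hormone itself, *Crh*, was higher after light, with ratios of 1.26, 2.98 and 2.07 (unadjusted p = 0.0189).

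Among noncoding RNAs, *Meg3*, a maternally expressed imprinted transcript, was at 0.482, 0.304 and 0.665 of the control. Its control replicas ran from 10.23 to 12.22, and its brighter probe set, at 0.649, 0.469 and 0.854, missed the limit in replica 3. A probe set annotated to *Mir29c* (GRCr8, chr13:109099359-109099446) was at 0.520, 0.401 and 0.614, with each light array below each control. Probe sets for long labelled RNA do not read the mature microRNA, which is printed for its identity with the seed in capitals.
rno-miR-29c-3p, chr13:109099412-109099433, plus strand: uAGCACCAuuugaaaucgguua

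The other genes of that group were spread over many functions. The laminin chain *Lamb3* was at 0.585, 0.604 and 0.210 of the control. In darkness it was also low in replica 3 (0.340) and near the control in replicas 1 and 2. *Nr2c1*, an orphan nuclear receptor, was at 0.691, 0.382 and 0.689 with its brightest probe set, while 2 dimmer ones had mean ratios of 0.964 and 1.09. All 3 probe sets of the RNA-binding protein *Rbms2* had a mean ratio below 1, at 0.616, 0.642 and 0.789. The mitochondrial kinase *Pdk1*, which holds pyruvate back from oxidation, was at 0.653, 0.696 and 0.697, and its brighter probe set at 0.832, 0.725 and 1.18. *Nphp4*, of the base of the cilium, was at 0.661, 0.690 and 0.593, and *Nat8f3*, an acetyltransferase relative, at 0.665, 0.476 and 0.574. *Mlf1*, *Fam110a*, *Lrrc24* and *Exoc3l2* had mean ratios of 0.562, 0.557, 0.629 and 0.637.

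*Mx2*, an interferon-induced GTPase, was the exception among the 23. It stood at 8.06, 8.63 and 8.31 in the controls, at 7.49, 8.03 and 7.52 after light and at 7.16, 7.36 and 7.15 in darkness to the same hour, so that it was lowest in the dark arrays. It was also the member of the 23 with an unadjusted p over 0.05 (0.0957), and the only one that passed the same limit in darkness.

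**Figure D2:**
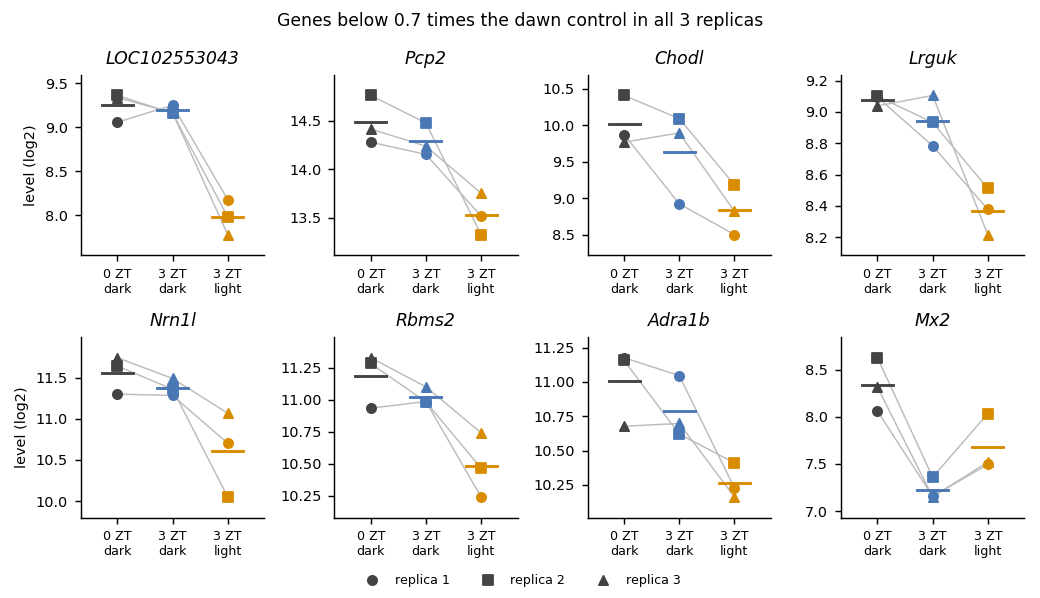
Level (log2, vertical axis) of 8 genes below 0.7 times the control, with the groups 0 ZT dark, 3 ZT dark and 3 ZT light from left to right. Symbols are replicas 1 (circle), 2 (square) and 3 (triangle), grey lines join a replica number and bars are group means; in 7 of the panels the light mean is lowest, and in that of Mx2 the 3 ZT dark mean is.

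The 18 probe sets above 1.6 times the control carried 9 gene symbols on 11 probe sets, and 7 had none. These too were picked by the ratios of the same arrays, so that their counts are no separate test. In 10 of the 18 the light arrays lay wholly above the controls, against 1.29% of all probe sets. An unadjusted p under 0.05 was found for 15, against 3.25% of all, and for 15 without 3 ZT light replica 2. *Ro60*, which binds small noncoding RNAs, passed with both of its probe sets. The brighter one stood at 9.69, 9.35 and 10.29 in the controls and at 10.81, 10.71 and 11.45 after light, without overlap, and its log2 fold change of 1.21 ± 0.187 had the lowest p of the higher named genes (5.54e-05, adjusted p = 0.248). The dimmer one had ratios of 1.79, 6.52 and 1.69, with the largest from replica 2. In darkness to 10 am replica 2 of *Ro60* was also higher, at 1.85 and 1.97 times the control, against 0.673 to 1.08 in the other pairs.

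*Rab27b*, a GTPase of vesicle transport, stood at 7.16, 6.68 and 10.00 before light and at 9.25, 8.41 and 11.20 after. Its groups overlapped, with replica 3 highest in both, and within pairs the ratios were 4.26, 3.34 and 2.30. Darkness left it near the control, with ratios of 1.00, 1.10 and 1.27. *Herc1*, a giant ubiquitin ligase, stood at 8.59, 7.78 and 9.45 and then at 10.05, 10.40 and 10.27, and the ubiquitin ligase *Smurf2* was at 2.95, 3.72 and 1.61 times the control. *Hook3*, which ties cargo to dynein, was at 2.41, 2.60 and 1.85, and *Mga*, a partner of MAX, at 2.12, 5.42 and 1.85. The zinc finger gene *Zfp445* was at 2.11, 2.34 and 1.75 (unadjusted p = 0.0536). *Lrrc8b*, a subunit of volume-regulated anion channels, was at 1.68, 1.96 and 2.34, but in darkness its replica 3 was already at 2.24. The histone demethylase *Kdm5a* passed with 2 probe sets, at unadjusted p of 0.116 and 0.0621. The 7 probe sets with no symbol had mean ratios from 1.86 to 4.34, and the one with a log2 fold change of 1.93 had the lowest adjusted p of all higher probe sets, 0.0926.

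**Figure D3:**
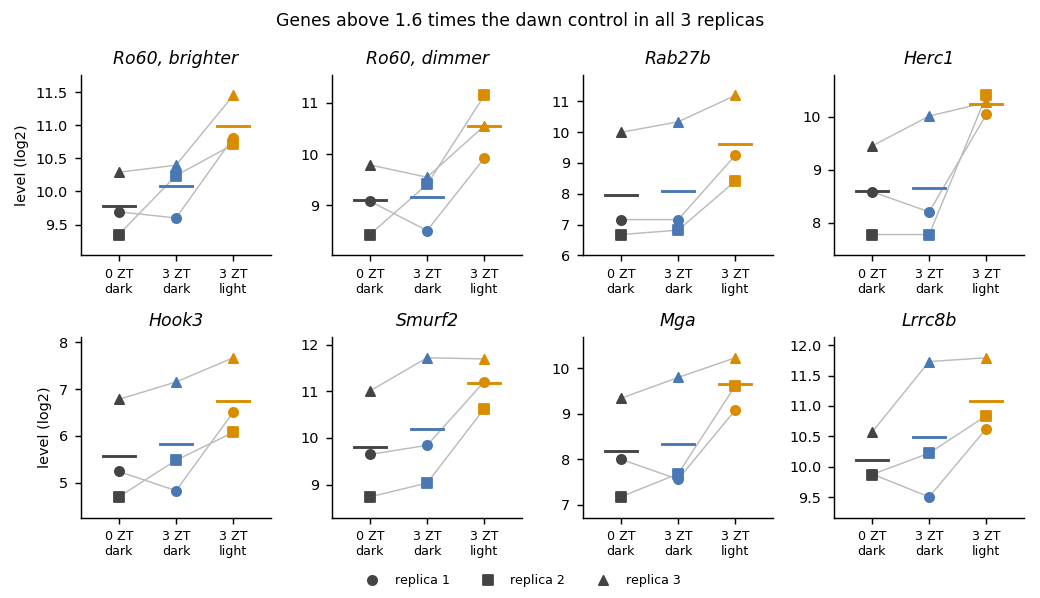
Level (log2, vertical axis) of 7 genes above 1.6 times the control, Ro60 with both probe sets, with the groups 0 ZT dark, 3 ZT dark and 3 ZT light from left to right. Symbols are replicas 1 (circle), 2 (square) and 3 (triangle), grey lines join a replica number and bars are group means. Each replica is above its own control after light, while replica 3 is the highest in each group in all panels but Herc1 and the dimmer Ro60.

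For most of these genes the array holds further probe sets, and most stood nearer the control. *Lrrc8b* has a single one and *Ro60* passed with both. The other 7 genes have 10 further probe sets, whose mean ratios ran from 0.965 to 1.31, and 7 of the 10 were above 1 in every replica. For *Smurf2* the brightest probe set was at 0.940, 1.34 and 1.12, and for *Kdm5a* at 1.15, 1.22 and 1.15. Of the 11 named probe sets 4 were the brightest of their gene, against 19 of the 22 named ones on the lower side. Which transcript ends or isoforms the probe sets read was not tested.

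**Figure D4:**
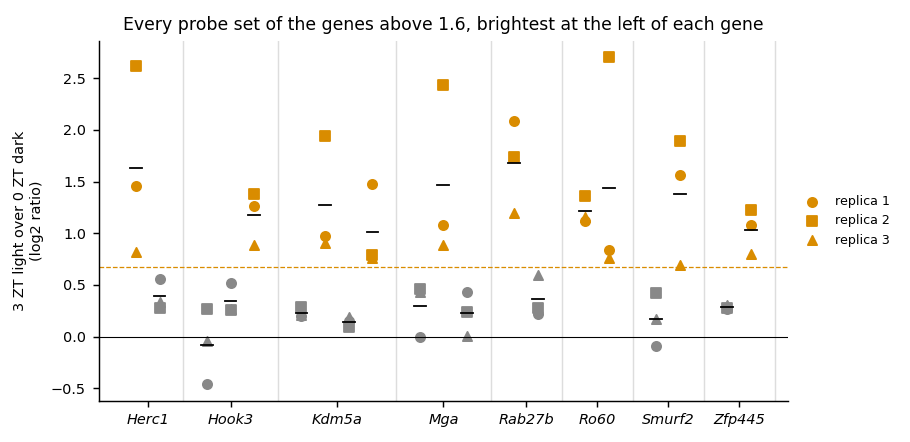
Ratio of 3 ZT light over 0 ZT dark (log2, vertical axis) in replicas 1 (circle), 2 (square) and 3 (triangle) for every probe set of 8 genes above 1.6 times the control, ordered by level within a gene; black bars are means and the dashed line is 1.6. Orange probe sets pass in all replicas, and the 10 grey ones of the same genes have mean ratios from 0.965 to 1.31.

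By the lowest p among genes with the same sign in all pairs, 12 higher and 12 lower genes were read. Their log2 fold changes ran from 0.32 to 1.68 and from -1.27 to -0.40. The groups were apart in 9 and 10 of them, against 1.29% and 1.21% of all probe sets. The choice by p on these same arrays favours such gaps. Beside *Ro60* and *Rab27b*, the higher ones held *Ccng1*, a cyclin induced by p53, at 12.56, 12.78 and 12.88 before light and 13.31, 13.22 and 13.32 after. It was also higher in darkness to 10 am (log2 fold change 0.36 against 0.55 with light). In replicas 2 and 3 its levels in 3 ZT dark equalled those in 3 ZT light, and only replica 1 differed, at 12.76 in darkness. *Cpt1a*, which carries fatty acids into mitochondria, stood at 11.66, 11.68 and 11.59 and then at 12.08, 12.18 and 12.26. Its log2 fold change in darkness was 0.09, but the ratios there were uneven, at 0.838, 1.02 and 1.43. Replica 3 of 3 ZT dark, at 12.10, lay within the range of the light arrays. *Ppp2r2b*, a neuronal subunit of protein phosphatase 2A, had ratios of 1.38, 1.34 and 1.35. On the log2 fold change scale *Pspc1*, of nuclear paraspeckles, was at 0.74, *Pdzph1* at 0.64, *Baiap2l1* at 0.61 and *Hook1*, a relative of *Hook3*, at 0.44. The ubiquitin ligase *Cop1*, *Nom1* and the microtubule bundler *Prc1* were at 0.32, 0.51 and 0.51.

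Lower genes by that rule, beyond those above, began with the keratin *Krt19*, at 10.87, 11.40 and 11.80 before light and 10.39, 9.92 and 10.55 after. *Gnaz*, a G protein alpha subunit, was at ratios of 0.627, 0.611 and 0.766. *Six6*, a homeobox gene of the eye, was at 0.745, 0.767 and 0.648, and *Hes6*, a basic helix-loop-helix regulator, at 0.808, 0.755 and 0.709. *Six6* stood lower in darkness too (-0.30 against -0.48 after light), while *Hes6* was at -0.04 in darkness against -0.40. *Pir*, *Ptgs2os* and *Uaca* had log2 fold changes of -0.53, -0.41 and -0.50.

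Gene groups were read from photoreceptor to ganglion cell, each gene with its brightest probe set. The 15 rod genes stood around the background, with a median log2 fold change of -0.01. Of these 2 were higher and 0 lower at an unadjusted p under 0.05, the channel subunit *Cnga1* at ratios of 1.08, 1.13 and 1.14 and the phosphodiesterase subunit *Pde6a* at 1.21, 1.00 and 1.18. Without 3 ZT light replica 2 the median was 0.05, with 3 higher and 1 lower at that level. The 11 genes of the visual cycle, which renews the chromophore, had a median of -0.07, and of 0.20 without that array. Among 7 guanylate cyclases and activators, both enzymes of the outer segment, *Gucy2f* and *Gucy2d*, were higher, with log2 fold changes of 0.30 (unadjusted p = 0.00906) and 0.28 (unadjusted p = 0.0253). The soluble cyclase subunit *Gucy1a1* was lower, at -0.33 (unadjusted p = 0.0356). Of 9 cone genes 7 stood lower, with a median of -0.15, and 3 had an unadjusted p under 0.05. These were *Gnb3*, a G protein subunit shared with ON bipolar cells (ratios 0.863, 0.679 and 0.673), cone arrestin *Arr3* (0.989, 0.683 and 0.629) and *Gngt2* (0.926, 0.691 and 0.666). With 3 ZT light replica 2 left out, the cone median was -0.17 and 1 of the 3, *Gnb3*, kept its unadjusted p under 0.05.

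Bipolar cell genes had the lowest median of the 42 groups. Without 3 ZT light replica 2 they were level with interferon-induced genes, both at -0.24, and without 0 ZT dark replica 1 both lens groups lay lower. Of 10 bipolar cell genes 9 stood lower, with a median of -0.44 and pair medians of -0.32, -0.60 and -0.30 in replicas 1 to 3. At an unadjusted p under 0.05, 4 were lower and 0 higher. *Grm6*, the gene of mGluR6, stood at 10.67, 11.19 and 11.16 before light and at 10.04, 10.70 and 9.56 after, where replica 3 was lowest and the groups overlapped slightly. Beside it and *Pcp2*, the G protein subunit *Gng13* was at ratios of 0.727, 0.414 and 0.646, and *Isl1*, a transcription factor that other inner retinal neurons share, at 0.576, 0.480 and 0.846. In the fit lacking 3 ZT light replica 2, the median was -0.24 and 3 of the 4 kept an unadjusted p under 0.05. Without 0 ZT dark replica 1 it was -0.53, and without both arrays -0.29, where 5 genes had an unadjusted p under 0.05 on the lower side. In darkness to 10 am the median was -0.10, and light against darkness at 10 am gave -0.41.

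Of 7 horizontal cell genes 6 stood lower, with a median of -0.20, among them calbindin, *Calb1*, at 11.97, 12.25 and 12.12 before light and 11.83, 11.84 and 11.73 after. An unadjusted p under 0.05 was met on the lower side by 4 of 19 amacrine cell genes, the transcription factor *Tfap2c*, parvalbumin *Pvalb*, the enkephalin precursor *Penk* and the vesicular inhibitory transporter *Slc32a1*, with log2 fold changes of -0.49, -0.57, -0.36 and -0.69. None of the 4 kept it without 3 ZT light replica 2. On the higher side 1 gene met it, *Crh*, given above. The amacrine median was -0.15 after light and -0.19 in darkness to 10 am, and light against darkness at 10 am gave 0.05, with 2 higher and 0 lower at an unadjusted p under 0.05. Of the horizontal cell genes 3 had an unadjusted p under 0.05 on the lower side, and 1 of them, *Calb1*, kept it without 3 ZT light replica 2. The 18 ganglion cell genes had a median of 0.03, with pair medians of -0.55, 0.23 and 0.29, and 0 at an unadjusted p under 0.05. The sodium pump of 8 genes stood at -0.22 (-0.13 without 3 ZT light replica 2), with *Fxyd1* and *Fxyd2* at -0.59 and -0.17.

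**Figure D5:**
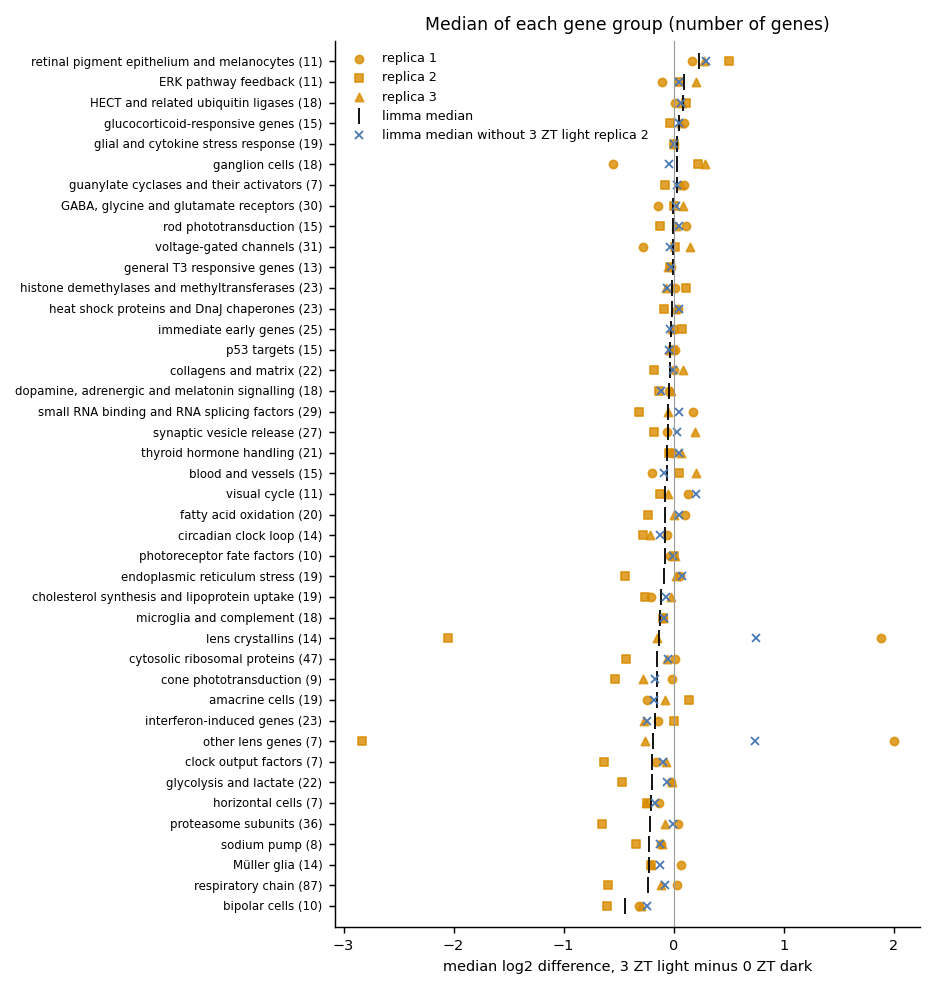
Median log2 difference of 3 ZT light minus 0 ZT dark (horizontal axis) for 42 gene groups, with the number of genes in brackets. Orange symbols are the 3 replica pairs, black ticks the limma fold change and blue crosses the same without 3 ZT light replica 2; bipolar cell genes have the lowest limma median, -0.44, and lens genes lie on opposite sides in replicas 1 and 2.

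Dopamine, adrenergic and melatonin signalling held 18 genes, with a median of -0.04. At an unadjusted p under 0.05, 4 were lower and 0 higher. Beside *Drd4* and *Adra1b*, *Asmt*, the last enzyme of melatonin synthesis, was at ratios of 0.999, 0.518 and 0.604 and the D2 receptor *Drd2* at 0.720, 0.486 and 0.668. Without 3 ZT light replica 2, an unadjusted p under 0.05 was found for *Drd4*, *Adra1b* and the alpha 2a receptor *Adra2a*, and *Asmt* and *Drd2* missed it (unadjusted p = 0.0664 and 0.0726).

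The circadian clock loop stood slightly lower, 11 of 14 genes, with a median of -0.08. The nuclear receptor *Rorb* led it, at 12.26, 12.44 and 12.39 before light and 12.02, 11.24 and 11.34 after, with no overlap and a log2 fold change of 0.00 in darkness. *Per3*, a period gene, was at ratios of 0.682, 0.452 and 0.761. The kinase *Csnk1e* was at 0.970, 0.688 and 0.719, and the cryptochrome *Cry2* at 1.07, 0.634 and 0.745. Of the output factors *Tef* was lower, at 0.854, 0.491 and 0.870. With 3 ZT light replica 2 left out, *Rorb* alone of these 5 kept an unadjusted p under 0.05 (0.00604).

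Immediate early genes, which neurons switch on within minutes of activity, had a median of -0.02 over 25 genes. At an unadjusted p under 0.05, 3 were lower and 0 higher after 3 hours. The orphan receptor *Nr4a1* stood at 10.35, 10.53 and 10.21 before light and at 10.01, 9.52 and 9.64 after, without overlap. The phosphatase *Dusp1* was at ratios of 0.673, 0.812 and 0.669 and *Ier3* at 0.911, 0.546 and 0.880. *Egr1* was at 12.96, 13.68 and 12.54 and then at 13.97, 14.74 and 12.74, higher in each pair but with an unadjusted p of 0.0777. In the fit lacking 3 ZT light replica 2, *Nr4a1* and *Dusp1* kept an unadjusted p under 0.05. Of 11 ERK feedback genes 7 stood higher, with a median of 0.09, and 0 were higher and 1 lower at an unadjusted p under 0.05. The lower one was *Etv5*, at ratios of 0.556, 0.821 and 0.681, and it missed that level without 3 ZT light replica 2 (unadjusted p = 0.108).

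Thyroid hormone genes were near the background, 21 genes with a median of -0.06 and of 0.05 without 3 ZT light replica 2. The deiodinase *Dio2*, which makes active T3, stood at 5.87, 6.56 and 7.12 before light and at 7.07, 6.97 and 9.51 after. The groups overlapped, all pairs were higher, and the log2 fold change was 1.33 ± 0.383 (unadjusted p = 0.00557). *Dio2* was not among the genes above 1.6 times the control in every replica, and its rise was smallest in replica 2. The corepressor *Ncor1* was at ratios of 1.22, 1.07 and 1.17. Among 13 general T3 responsive genes *Cpt1a* was higher and *Thrsp*, a regulator of fat synthesis, lower, at 0.844, 0.478 and 0.756, and the group had a median of -0.01.

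Of 20 genes of fatty acid oxidation 3 were higher at an unadjusted p under 0.05, *Cpt1a*, the coactivator *Ppargc1a* (ratios 1.34, 1.17 and 1.41) and the receptor *Ppara* (1.35, 1.00 and 1.19), and all 3 kept it without 3 ZT light replica 2. The lipid droplet protein *Plin2* and the paralogues *Cpt1b* and *Cpt1c* were lower, at -0.25, -0.33 and -0.35, and none of the 3 kept it. The lipogenic regulator *Srebf1* stood at 12.09, 11.70 and 11.78 before light and 11.49, 11.28 and 11.45 after. Of 22 genes of glycolysis and lactate 20 stood lower, with a median of -0.20, pair medians of -0.03, -0.47 and -0.02 in replicas 1 to 3, and -0.06 without 3 ZT light replica 2. Other large groups were also nearer 0 without that array, 87 respiratory chain genes (median -0.23, and -0.08 without 3 ZT light replica 2), 36 proteasome subunits (-0.21 and 0.00) and 47 cytosolic ribosomal proteins (-0.15 and -0.05). Without 0 ZT dark replica 1, the other array of high *Actb* difference, they lay further from 0. The respiratory chain then had a median of -0.33 with 31 genes lower at an unadjusted p under 0.05, against 16 with all arrays. The proteasome was at -0.30 and the ribosomal proteins at -0.23. Without both arrays the medians were -0.15, -0.05 and -0.10 in that order. The part of the RNA of these arrays in the differences was not tested.

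Müller glia, which clear glutamate and recycle retinoids, stood lower in 12 of 14 genes, with a median of -0.23 and 0 at an unadjusted p under 0.05. Without 3 ZT light replica 2 the median was -0.12 and 1 gene was lower at that level. Without 0 ZT dark replica 1 it was -0.28 with 5 lower, and without both -0.19 with 2 lower. Of 18 microglia and complement genes 15 stood lower, with a median of -0.12. *Aif1*, the marker of microglia known as IBA1, was at ratios of 0.816, 0.414 and 0.612, lysozyme *Lyz2* at 0.892, 0.783 and 0.516 and *C3* at 0.536, 1.08 and 0.766, and all 3 kept an unadjusted p under 0.05 without 3 ZT light replica 2. Among interferon-induced genes 6 of 23 had an unadjusted p under 0.05, all on the lower side, *Psmb8*, *Psmb9*, *Ifit3*, *Bst2*, *Isg15* and *Ifi27*. With 3 ZT light replica 2 left out, there were 2, *Psmb8* and *Mx1*, with a median of -0.24. The median of that group was -0.17 after light and -0.18 in darkness to 10 am, and light against darkness at 10 am gave -0.04.

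Pigment cell genes had the highest median of the 42 groups, 0.23, with 9 of 11 higher. In the fit lacking 3 ZT light replica 2, it was 0.30, below both lens groups. *Pmel*, the scaffold of melanin, stood at 11.62, 11.39 and 10.66 before light and at 11.85, 12.48 and 11.73 after, and *Dct*, an enzyme of melanin synthesis, had a log2 fold change of 0.45. Other markers of pigment epithelium were uneven, with *Tyrp1* at 0.40, *Rpe65* at 0.14 and *Ttr* at -0.28, each with an unadjusted p over 0.05. Pigment epithelium adheres to the retina when it is peeled off, and its share in the samples was not tested. The mean level of the 11 genes ran from 10.17 to 10.41 in the controls and from 10.38 to 10.60 after light. In 3 ZT dark replicas 1 to 3 it was 10.13, 10.64 and 10.29, so that replica 2 stood above each light array. Of the 14 lens crystallins 11 stood lower and 3 higher, with a median of -0.13. Without 3 ZT light replica 2, 13 of 14 stood higher with a median of 0.75, and without 0 ZT dark replica 1 the median was -0.89. The 3 that stood higher with all arrays, *Crygb*, *Crygc* and *Crygd*, were so at an unadjusted p under 0.05, *Crygb* at ratios of 4.06, 1.24 and 6.46 and the lens membrane gene *Lim2* at 8.50, 0.0800 and 0.579, and the uneven lens level of these samples was given above. Heat shock proteins (median -0.01, 23 genes), genes of endoplasmic reticulum stress (-0.08, 19 genes) and transmitter receptors (0.00, 30 genes) had 0 genes at an unadjusted p under 0.05. With 3 ZT light replica 2 left out, the median of endoplasmic reticulum stress turned to 0.07, with 13 of 19 higher, 2 of them, *Hspa5* and *Hsp90b1*, at that level, and the heat shock median was 0.05. Among histone demethylases and methyltransferases *Kdm4c* was higher, at 1.76, 2.43 and 1.19, and among genes of synaptic vesicle release *Sgip1* at 1.49, 1.10 and 1.37. Medians of these groups were -0.01 (23 genes) and -0.05 (27 genes), and each also held 1 gene lower at an unadjusted p under 0.05. Without 3 ZT light replica 2 *Kdm4c* missed an unadjusted p under 0.05 (0.0655), and 6 of 27 synaptic vesicle genes were higher at that level, against 2 with all arrays.

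Light and the clock hour were set side by side through the arrays of 3 ZT dark, which share the 0 ZT dark control or the 3 ZT light arrays with the main comparison. Darkness to 10 am gave 0 probe sets at an adjusted p under 0.05 in either direction by limma, with a lowest adjusted p of 1. At an unadjusted p under 0.05 it gave 148 higher (0.477%) and 241 lower (0.776%). Light against darkness at 10 am gave 608 higher (1.96%) and 818 lower (2.64%) at that level, and 499 and 443 without 3 ZT light replica 2. With array weights the counts lay closer, 645 higher and 695 lower for light against darkness and 556 and 582 for darkness to 10 am. The probe sets of the ratio rule were picked by the 3 ZT light and 0 ZT dark arrays, which these 2 comparisons reuse. Their values are therefore no separate test of light or of the hour. For the 18 probe sets above 1.6 times the control, the log2 fold change in darkness ran from 0.05 to 0.57, and 0 had an unadjusted p under 0.05. Light against darkness at 10 am ran from 0.59 to 1.57 for them, and 14 had an unadjusted p under 0.05. For the 23 below 0.7 times, darkness gave -1.11 to -0.03, with 2 at an unadjusted p under 0.05. Light against darkness at 10 am gave -1.21 to 0.46, the last being *Mx2*, and 18 had an unadjusted p under 0.05.

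The promoters of 8 of the 9 named genes above 1.6 times the control and of 17 of the 22 below 0.7 times were in the RefSeq table. The letters of 5 motifs were sought on both strands of the 300 bases, and some of them overlap. ACGTG, the core of hypoxia response elements, stood in 1 of 8 (*Ro60*) and 2 of 17 (*Lrguk* and *Pdk1*), against 24.04% of the 11733 promoters of genes on the array. TGACG, the core of cyclic AMP response elements, stood in 3 of 8 and 6 of 17, against 29.2%. CACGTG, the E-box of clock factors, stood in 0 of both against 8.92%, and TAATCC, a site of the photoreceptor factor CRX, in 0 of both against 5.53%. The pair of half-sites of thyroid hormone receptors 4 bases apart, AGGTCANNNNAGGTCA, was in 1 of all 27457 promoters. The printed promoter of *LOC102553043* held none of the 5, and that of *Drd4* held ACGTG and TGACG.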

How the data were processed

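Retinal RNA was hybridised to Affymetrix rat expression arrays, and the deposited table holds log2 levels that the authors made from the scans with RMA (background correction, quantile normalisation and a summary per probe set). Median levels of the 15 arrays followed the replica number (8.28 to 8.32 in replica 1, 8.58 to 8.68 in replica 2, 8.74 to 8.80 in replica 3), and whether each number was normalised on its own is not stated. Within a number the medians lay close, so a shift shared by most transcripts might not be seen. The 57 control probe sets of 31099 were left out. Gene names came from the platform annotation (20832 probe sets with a single symbol, 436 with several), and 20764 matched RefSeq on GRCr8, which also gave coordinates and sequences. No column was left unused.

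The 15 arrays of 5 conditions were fitted with limma 3.58.1 (R 4.3.3, statmod 1.5.0), with condition and the replica number as terms, and p-values were adjusted by Benjamini-Hochberg over all 31042 probe sets. Pairing by number came from the study's per-replica ratios. Same-numbered arrays of 0 ZT dark and 3 ZT light deviated together (r = 0.289, 0.371 and 0.757) and differently numbered ones less (-0.536 to 0.233). The study's rule asked for a ratio above 1.6 or below 0.7 in every replica. An exact permutation test of 3 arrays against 3 cannot give a p below 0.1, so none was used for single genes. Where labels do not say that arrays came from separate animals, p-values measure the spread between these samples only. The number of arrays limits the precision, and tables were made with Python 3.11.15, pandas 2.3.3, numpy 2.4.6 and matplotlib 3.10.9. The limma steps were tested on simulated data.

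The genes named were those with 1 symbol that passed the ratio rule, the 12 per direction with the lowest p among brightest probe sets with 1 sign in all replicas, up to 4 members per list with the lowest p, and genes the study text names. Neighbours of *LOC102553043*, the low-oxygen genes, and a few further list members such as *Ifi27* were chosen after values were seen. The comparison and the 42 gene lists were chosen with earlier results of these data known. Alternatives were fits without the block, with quantile or cyclic loess normalisation, without the dimmest 25% of probe sets, with array weights, with only the 6 arrays, and without single arrays.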

Additional observations from a re-analysis of the deposited data

How the results depend on the processing

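The replica block carried much of the sensitivity. With no replicate block, 3 ZT light against 0 ZT dark gave 140 higher and 252 lower probe sets at an unadjusted p under 0.05, light against darkness at 10 am gave 71 and 107, with 0 at an adjusted p under 0.05, and darkness to 10 am gave 4 and 31. *LOC102553043* was still lower without the block (adjusted p = 0.0336). With only the 6 arrays the light comparison gave 601 and 813, and 0 lower at an adjusted p under 0.05. With both arrays of high *Actb* difference left out, 914 were lower. Array weights gave 1 probe set higher at an adjusted p under 0.05, and 556 higher and 582 lower in darkness at an unadjusted p. Light against darkness at 10 am then had 645 higher and 695 lower. Quantile normalisation left 0 adjusted calls for light against darkness and 15 probe sets below 0.7 times. Limits of 2 and 0.5 left 5 above and 0 below, and a log2 ratio under -0.7 left 4 below.

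Leaving out 1 array at a time, the light comparison had 0 to 1 lower at an adjusted p under 0.05, 599 to 1777 higher and 771 to 2177 lower at an unadjusted p. Light against darkness had 0 adjusted calls, 368 to 1425 higher and 443 to 1688 lower. Darkness to 10 am had 109 to 483 higher and 191 to 559 lower. The lowest counts of the light comparison came without 0 ZT dark replica 3 and the highest without 3 ZT light replica 3. Without 1 replica the ratio rule passed 47 to 107 above and 107 to 184 below, where only 2 pairs had to agree in side. The log2 fold change of *Phrf1* ran from -0.21 to 0.036 when 1 array was left out, turning without 0 ZT dark replica 1, and was 0.0098 without both arrays of high *Actb* difference. Of 588 list medians, 65 moved by more than the spread between replicates.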
